A study of Homo sapiens with 2 samples.

Results

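The genes described here encode subunits of RNA polymerases I, II and III. They are the genes whose symbol is POLR1, POLR2 or POLR3 followed by a letter, and 30 of the 27685 genes listed met that rule. One further gene, POLR2J4, matched the symbol but is annotated as a pseudogene and was dropped (194 counts with LINC00472 and 293 in the control). The 30 were split by the size of the protein. The large catalytic class holds the 6 genes of the largest and next-largest subunits. The small class holds 16 genes with proteins under 250 residues, and the other 8 are called intermediate. Nearest that limit are POLR3G with 223 residues on the small side and POLR2C with 275 on the other, and their log2 ratios between the libraries described below were 0.02 and -1.54.

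RNA polymerase I makes the large ribosomal RNA precursor, RNA polymerase II makes messenger RNA and many noncoding RNAs, and RNA polymerase III makes transfer RNA, the 5S ribosomal RNA and other short RNAs. In each enzyme the largest and next-largest subunits form the active centre. Around them sit an assembly platform of alpha-like subunits, small subunits that all of the enzymes share, a stalk, and a zinc-binding subunit that helps in RNA cleavage or proofreading. RNA polymerase III carries further subunits for initiation and termination.

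RNA came from NCI-H838, an established human lung adenocarcinoma line, 48 hours after transient transfection with Lipofectamine 2000. LINC00472 is a long noncoding RNA transcribed between genes. In one culture its full length was delivered on the plasmid pCDH, and the control culture was given pCDH with no insert. Each group held 1 library, so no difference has a replicate check and no p-value is given. The share of cells that took up plasmid is not given in the sources used here.

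The LINC00472 library held 21093055 gene counts and the control 54823706. LINC00472 itself had 5655 counts in the library labelled with it and 2563 in the control (25.3 against 4.74 FPKM, a count of fragments divided by transcript length and by library size). The epithelial keratins KRT8 (26.5 against 94.2 FPKM) and KRT18 (23.9 against 157 FPKM) were present in both, as were CDH1 (2.1 against 1.34 FPKM) and EPCAM (1.18 against 1.19 FPKM), while KRT19 had 0 and 44 counts. Of 5 lung lineage markers, NKX2-1, SFTPB and SFTPA1 had 0 counts in both, SFTPC had 0 and 7, and NAPSA had 88 and 66 (2.40 against 0.742 FPKM). Markers of blood, fibroblast and endothelial cells summed to 7.90, 1.99 and 0.165 FPKM in the LINC00472 library and 3.18, 2.03 and 0.153 FPKM in the control. Most of the blood sum was CD14 (7.77 against 2.75 FPKM). PTPRC, the defining leukocyte marker, had 0 and 32 counts, and their part in the results below was not tested.

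The members differ greatly in size but share an active centre among the largest subunits. The following stretches of the GENCODE 29 transcripts are shown for the largest subunit of each enzyme. The next-largest subunits, also in the large class, were not searched for this motif. The capitals are the codons of the conserved motif whose aspartates hold the catalytic magnesium.
POLR1A: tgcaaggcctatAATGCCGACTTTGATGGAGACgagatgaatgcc
POLR2A: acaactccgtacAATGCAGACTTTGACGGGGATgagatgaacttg
POLR3A: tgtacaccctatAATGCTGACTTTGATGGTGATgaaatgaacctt

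The genes of the small alpha-like subunit of RNA polymerase II form a family of copies that are near-identical over most of their coding length, which limits what their counts can show. Over 315 aligned coding bases POLR2J3 differed from POLR2J at 1 base and POLR2J2 at 3 bases, apart from a gap of 3 bases. Their ends part from that of POLR2J, so that over 348 bases POLR2J3 differed from it at 29 and POLR2J2 at 31. POLR2J2 and POLR2J3 differed from each other at 2 of 348 bases. The stretch below holds both of those differences and the gap, in capitals. Within it POLR2J3 reads as POLR2J does on each side of the gap.
POLR2J: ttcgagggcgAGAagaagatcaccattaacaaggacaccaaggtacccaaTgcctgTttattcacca
POLR2J2: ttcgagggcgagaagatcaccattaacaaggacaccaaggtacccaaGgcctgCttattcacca
POLR2J3: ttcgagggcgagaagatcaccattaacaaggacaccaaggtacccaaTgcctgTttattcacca

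Of the 30 subunit genes, 16 were lower and 0 higher in the LINC00472 library. A gene was called higher or lower when its mean level was at least 1 CPM, the unit of counts scaled to library size, its ratio was at least 2-fold, and the 95% counting interval of the ratio excluded equality. All 30 genes reached that level. By the same rule 23.8% of all genes at the minimum were lower and 16.3% higher, and of protein-coding genes 26.2% were lower and 11.4% higher. The share of lower calls among the subunits was 53.3%. Their median log2 ratio was -1.23, against -0.19 for all genes and -0.31 for protein-coding genes. With total-count and upper quartile scaling 12 and 11 subunits were lower and 0 higher, while calls over all genes went from 3341 lower and 2288 higher to 2297 and 3155, and to 1993 and 3531. POLR1D, POLR2J3, POLR2M and POLR3C lost their calls under both of these scalings, and POLR2K under upper quartile scaling. The sign of the ratio was negative for 27 of the 30, and that of POLR3E turned positive with upper quartile scaling. Fewer cells of a kind and less RNA per cell cannot be told apart in these bulk libraries.

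The calls fell unevenly over the classes. None of the 6 large catalytic genes was called, while 12 of 16 small genes and 4 of 8 intermediate genes were lower. Median log2 ratios were -0.53 for the large class, -1.09 for the intermediate class and -1.60 for the small class. The small class thus lay 1.07 below the large one on the log2 scale (difference of medians -1.07), a 2.1-fold gap. POLR2J2 had no counts in 1 library. Setting it at a floor of 3 counts there leaves the small median where it is, since it remains the lowest value.

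**Figure D1:**
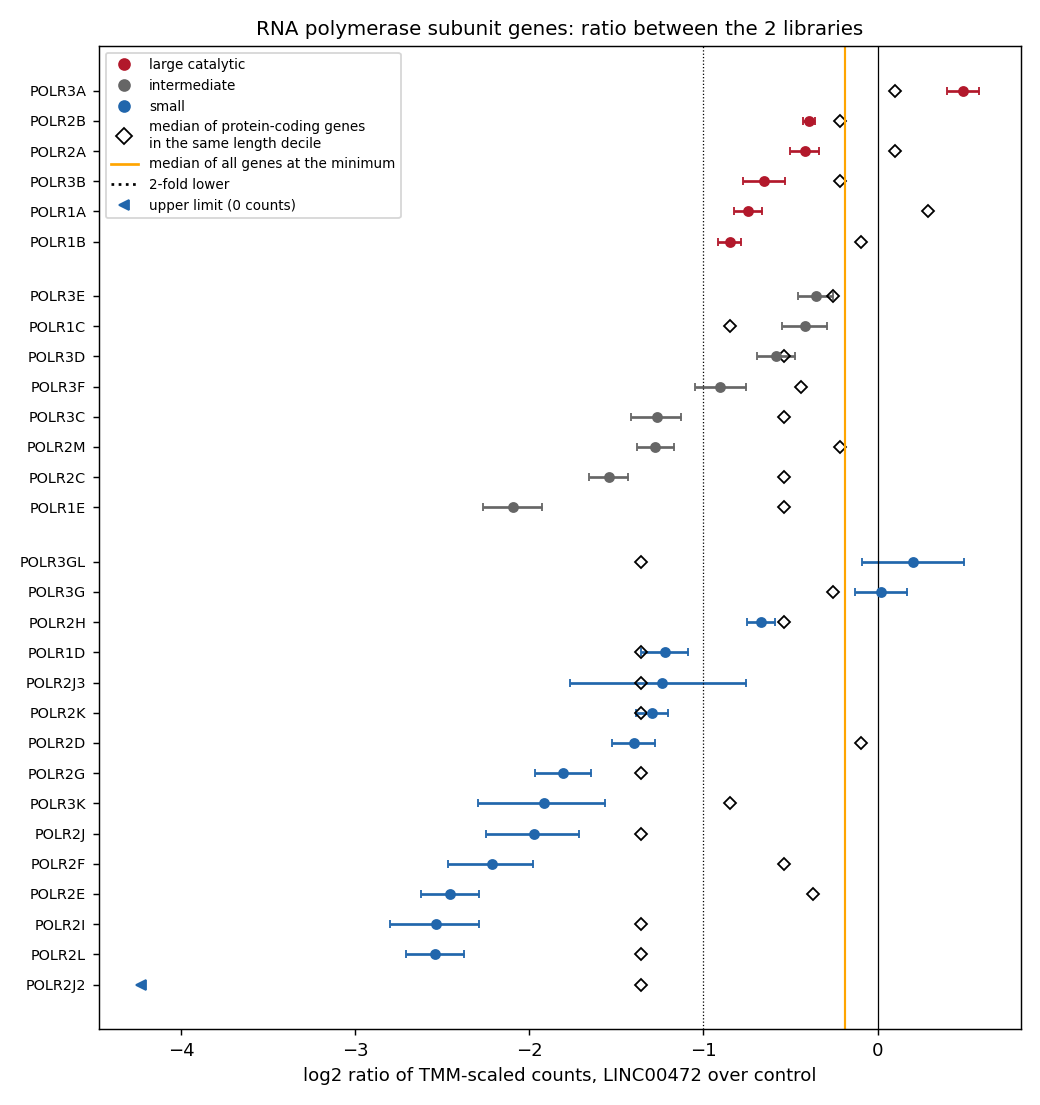
Log2 ratio of TMM-scaled counts (LINC00472 over control) for 29 subunit genes, 1 library per group; filled points carry the 95% counting interval, the triangle is the limit for POLR2J2 with 0 counts, and open diamonds give the median of protein-coding genes in the same decile of transcript length. All 6 large catalytic genes lie right of the line for 2-fold lower, and 12 small genes lie left of it. The limit drawn for POLR2J2 takes its LINC00472 count as 3.

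Among the large catalytic genes, POLR3A went against the rest. POLR3A, the largest subunit of RNA polymerase III, had 1649 counts with LINC00472 and 2498 in the control (10.6 against 6.62 FPKM). Its scaled ratio was 1.40-fold higher (log2 ratio 0.49, interval 0.40 to 0.58), short of the 2-fold rule. Its partner POLR3B had 710 against 2375 counts (7.10 against 9.77 FPKM) and a log2 ratio of -0.65 (interval -0.78 to -0.53). The pair that forms the active centre of RNA polymerase III therefore had intervals on opposite sides of equality. POLR3A was at 1.49 times the FPKM of POLR3B in the LINC00472 library and at 0.677 times in the control.

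The catalytic pairs of RNA polymerases I and II moved more evenly. POLR2A, whose protein carries the long tail of repeats that is phosphorylated during transcription, had 1616 against 4592 counts (10.2 against 12 FPKM) and a log2 ratio of -0.42 (interval -0.50 to -0.34). POLR2B, its partner, had 8599 against 24064 counts (90.5 against 105 FPKM) and a log2 ratio of -0.40 (interval -0.43 to -0.36). Their intervals overlap, and POLR2B lay 8.88-fold above POLR2A in FPKM in the LINC00472 library and 8.73-fold in the control. With upper quartile scaling the log2 ratios of POLR2A and POLR2B were -0.029 and -0.007. POLR1A had 1554 against 5536 counts (7.76 against 11.4 FPKM, log2 ratio -0.74). POLR1B had 2445 against 9380 counts (19.2 against 30.4 FPKM, log2 ratio -0.85). The interval of POLR1A ran from -0.83 to -0.66 and that of POLR1B from -0.92 to -0.79, so these too overlap.

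Of the 5 subunits that RNA polymerases I, II and III share, 4 were lower (80%, against 26.2% of protein-coding genes). In the length deciles of these 5 genes the share of lower genes ran from 26.2% to 61.7%. POLR2K, 1 of the 4, lay 0.07 above its decile median. As a group the 5 had a median log2 ratio of -2.22, or -1.18 relative to genes of like length. POLR2L, a zinc-binding subunit, had 316 counts against 3912 in the control library (15.3 against 78.5 FPKM). It was 5.81-fold lower (log2 ratio -2.54, interval -2.71 to -2.37). Exons of CD151 on the opposite strand overlap 12.4% of its transcript, and CD151 had a log2 ratio of -1.29. POLR2E, which lies near the downstream DNA in the enzyme, had 324 against 3782 counts (4.79 against 23.2 FPKM) and was 5.48-fold lower. Both lay far below the 2-fold line, and so did POLR2F.

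POLR2F had 155 against 1536 counts (3.30 against 13.0 FPKM) and was 4.65-fold lower (log2 ratio -2.22, interval -2.47 to -1.98). POLR2K, a very small zinc-binding subunit, was milder, with 1090 against 5692 counts (47.8 against 103 FPKM) and a 2.45-fold lower ratio. POLR2H was the exception, with 1657 against 5610 counts (47.5 against 67.6 FPKM) and a log2 ratio of -0.67 (interval -0.75 to -0.59). The subunits that every enzyme shares thus ranged from -2.54 to -0.67 on the log2 scale, and none of the intervals of POLR2L, POLR2K and POLR2H overlap. Together they took 0.0168% of gene counts in the LINC00472 library (exact binomial 95% interval 0.0162 to 0.0174) and 0.0375% in the control (0.0369 to 0.0380).

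Of the 10 genes particular to RNA polymerase II, 8 were lower (80%, against 26.2% of protein-coding genes), all except the catalytic pair. The 8 include POLR2J2, POLR2J3 and POLR2M, whose counts are uncertain, as described below. POLR2J3 and POLR2M lost their calls under total-count and upper quartile scaling. Of the 12 genes POLR2A to POLR2L, 75% were lower, where the average share for genes of like length was 39.7%. POLR2I, the zinc-binding subunit with a part in transcript fidelity, had 140 against 1731 counts (6.82 against 34.9 FPKM) and was 5.80-fold lower (log2 ratio -2.54, interval -2.80 to -2.29). Exons of TBCB on the opposite strand cover 45.7% of its transcript, and TBCB itself had a log2 ratio of -2.47. AD001527.2, also on the opposite strand, overlaps 49.8% of the POLR2I transcript. Whether the library marked strand is not given in the sources used here, so reads from the overlaps cannot be assigned to single genes with confidence.

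The stalk of RNA polymerase II is formed by POLR2D and POLR2G, which bind the emerging RNA. POLR2G had 367 against 2730 counts (18.7 against 57.3 FPKM) and was 3.49-fold lower (log2 ratio -1.80, interval -1.97 to -1.65). POLR2D had 633 against 3554 counts (11.6 against 26.9 FPKM) and was 2.64-fold lower (log2 ratio -1.40, interval -1.52 to -1.28). Both stalk genes were lower, and their intervals do not overlap. Relative to genes of like length their order was reversed, with POLR2G at -0.44 and POLR2D at -1.30.

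The assembly platform of RNA polymerase II pairs POLR2C with POLR2J. POLR2C had 743 against 4612 counts (17.5 against 44.9 FPKM) and was 2.92-fold lower. POLR2J had 131 against 1097 counts (5.70 against 19.8 FPKM) and was 3.93-fold lower. POLR2M, also known as Gdown1, an associated subunit that holds the enzyme in an inactive state until Mediator acts, had 880 against 4536 counts (8.69 against 18.5 FPKM) and was 2.42-fold lower. GCOM1 shares exons over 33% of the POLR2M transcript and was higher (108 against 31 counts), so the split of reads between them is uncertain.

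The copies of POLR2J were thinly counted. POLR2J2 had 0 counts with LINC00472 and 120 in the control. With its LINC00472 count set to a floor of 3 and the control count taken as exact, it was 18.8-fold lower. The counting interval, which also takes in the error of the control count, reached up to a log2 ratio of -3.91, a smaller difference. With 0.5 added to FPKM the log2 ratio was -1.64. POLR2J3 had 41 against 207 counts and was 2.36-fold lower (log2 ratio -1.24, interval -1.77 to -0.76). Given the sequences printed above, reads from the stretch the copies share cannot be assigned to single genes with confidence.

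Of the 3 genes particular to RNA polymerase I under these symbols, only POLR1E was lower (33.3%, against 26.2% of protein-coding genes). It encodes PAF53, one of the dimer that is found in this enzyme alone. POLR1E had 312 against 2835 counts (6.99 against 26.6 FPKM) and was 4.27-fold lower (log2 ratio -2.09, interval -2.27 to -1.93). CD3EAP, the older symbol of its dimer partner PAF49, had 158 against 2018 counts (2.03 against 10.8 FPKM) and a log2 ratio of -2.58. Both genes of the dimer were thus lower, below the ratios of POLR1A and POLR1B. TWISTNB, the stalk subunit of RNA polymerase I, and ZNRD1, its zinc-binding cleavage subunit, had log2 ratios of -0.76 and -0.28 and were not called.

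The assembly platform that RNA polymerases I and III share pairs POLR1C with POLR1D. POLR1C had 669 against 1902 counts (21 against 24.8 FPKM) and a log2 ratio of -0.42 (interval -0.55 to -0.29). With upper quartile scaling that ratio was -0.03. POLR1D had 542 against 2693 counts (22.9 against 49.3 FPKM) and was 2.33-fold lower (log2 ratio -1.22, interval -1.36 to -1.09). The intervals do not overlap. In FPKM POLR1D lay 1.99-fold above POLR1C in the control and 1.09-fold above it in the LINC00472 library.

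Of the 10 genes particular to RNA polymerase III, 2 were lower (20%), a share near the 23.8% of all genes, and their median log2 ratio was -0.62. POLR3K, the cleavage subunit needed for termination, had 72 against 581 counts (3.67 against 12.4 FPKM) and was 3.78-fold lower (log2 ratio -1.92, interval -2.30 to -1.57). Exons of SNRNP25 on the opposite strand overlap 11% of its transcript, and that gene had a log2 ratio of -2.07. POLR3C, a member of the trimer that contacts initiation factors, had 468 against 2401 counts (5.13 against 10.8 FPKM) and was 2.41-fold lower. Its log2 ratio of -1.27 became -0.98 with total-count and -0.88 with upper quartile scaling, both short of 2-fold.

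The other members of that trimer were not called. POLR3F had 476 against 1894 counts (9.32 against 15.4 FPKM) and a log2 ratio of -0.90. Its remaining place is filled by either of a pair of paralogs, POLR3G and POLR3GL. POLR3G, the form linked to proliferating and stem cells, had 541 against 1135 counts (7.0 against 6.07 FPKM). POLR3GL, the broadly expressed form, had 150 against 277 counts (5.39 against 4.20 FPKM). Their log2 ratios of 0.02 (interval -0.13 to 0.17) and 0.20 (interval -0.09 to 0.50) both include equality and overlap each other. Among the small genes these were the 2 with a ratio above equality. Of the POLR3GL transcript, 32.8% is also annotated to another gene on the same strand, so its counts are uncertain.

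Of the dimer that resembles an initiation factor of RNA polymerase II, POLR3D had 886 against 2825 counts (19.5 against 25.7 FPKM, log2 ratio -0.58) and POLR3E had 1108 against 3015 counts (12.7 against 14.2 FPKM, log2 ratio -0.35, but 0.03 with upper quartile scaling). Neither was called. CRCP, which encodes a stalk subunit of RNA polymerase III, had 746 against 4047 counts and was lower, with a log2 ratio of -1.35.

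Protein size and transcript length go together in these genes. Median transcript length was 5599 nt in the large class and 1081.5 nt in the small class. Across protein-coding genes the ratio followed length as well. The median log2 ratio was -1.36 in the decile of shortest transcripts, where 61.7% of genes were lower, and 0.29 in the decile of longest ones, where 5.82% were lower. Spearman's correlation of ratio with length was 0.48 across the 30 subunit genes, which share both libraries, and 0.36 across 12380 protein-coding genes. Both are descriptions across genes, which are not independent replicates.

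Set against genes of like length, the gap between the classes narrowed. With the median of its own length decile subtracted from each ratio, the large class had a median of -0.48 and the small class -0.76. The difference was then -0.28 instead of -1.07. It was -0.40 with ratios adjusted jointly for GC content and the lengths of transcript and introns. The part of library or RNA properties linked to length in the class difference was not tested beyond these adjustments.

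The subunit genes as a whole nonetheless lay below genes of their own length. Of the 30, 23 had a ratio under the median of their decile, namely 5 of 6 large, 7 of 8 intermediate and 11 of 16 small genes, and the median distance was -0.56. The decile shares of lower calls averaged 35.3% over the deciles of the 30 genes, where 53.3% of the subunits were lower. For the small class the decile average was 46.3% and the share of lower genes 75%. For the large class the decile average was 12.7% and 0 of 6 genes were lower.

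Some members lay far from genes of like length. Relative to the decile median, POLR2E lay at -2.08, POLR2F at -1.68, POLR1E at -1.56 and POLR2D at -1.30, and CD3EAP, which is not among the 30, at -2.33. POLR2D has a transcript of 5042 nt but a protein of only 142 residues, and it was lower while its decile median was -0.10. On the other side, POLR3GL lay 1.56 above its decile median, POLR1C 0.43 and POLR3A 0.39. POLR1A, with the longest transcript of the group at 12749 nt, lay at -1.03 relative to its decile.

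**Figure D2:**
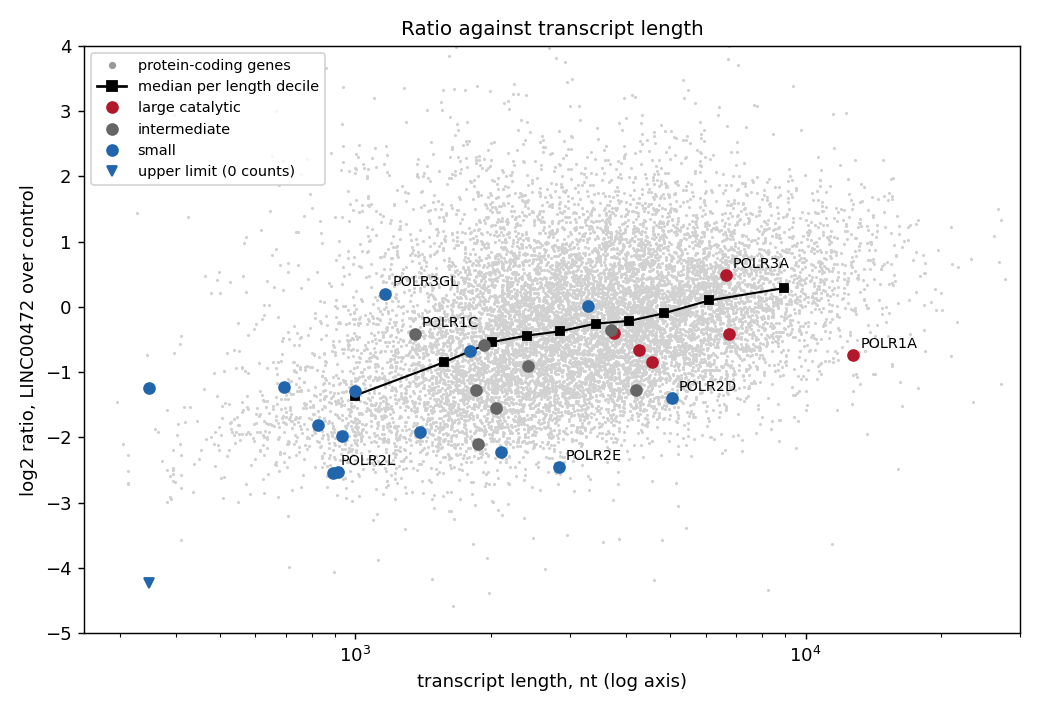
Log2 ratio against transcript length in nt (log axis) for 12330 protein-coding genes (grey; 50 lie outside the axes), the median of each length decile (black squares) and 29 subunit genes by class (coloured). The decile medians climb from -1.36 to 0.29, and POLR2E and POLR2D lie well under the medians of genes of like length.

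Levels per length were compared between the size classes, with the polymerases pooled. In the control, small subunit genes had a higher median level (21.5 FPKM) than the large catalytic ones (11.7 FPKM). In the LINC00472 library the order was turned, with 6.26 FPKM for the small class and 10.4 FPKM for the large class. Without POLR2J2 and POLR2J3 the small class had medians of 25.1 and 6.91 FPKM, and the order turned as well. FPKM removes length from the level of a gene but not from a ratio between libraries. Over protein-coding genes the median log2 ratio was -1.36 in the decile of shortest transcripts and 0.29 in that of the longest. Whether the turned order goes beyond this trend was not tested.

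For RNA polymerase II, the 12 genes POLR2A to POLR2L span its standard subunits. Their FPKM ran from 12 (POLR2A) to 105 (POLR2B) in the control, an 8.73-fold range. In the LINC00472 library they ran from 3.30 (POLR2F) to 90.5 (POLR2B), a 27.4-fold range. For the 10 genes particular to RNA polymerase III the range was 6.13-fold in the control and 5.32-fold in the LINC00472 library. Its low ends were POLR3GL, whose counts are uncertain, and POLR3K with 72 counts, so no direction can be read. The levels of neighbouring subunits in these orders have no replicate spread, so small steps in rank cannot be read.

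POLR2B and POLR2K ranked first and second of the 30 in FPKM in both libraries. Larger shifts of rank were seen lower down. POLR3A stood at rank 26 in the control and 13 with LINC00472, and POLR1C at 13 and 5. POLR3G stood at 27 and 19. POLR2I went from 8 to 21, POLR2E from 14 to 25, POLR1E from 11 to 20 and POLR2F from 19 to 28. Shifts of at least 8 places upward thus included 1 gene of each size class.

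**Figure D3:**
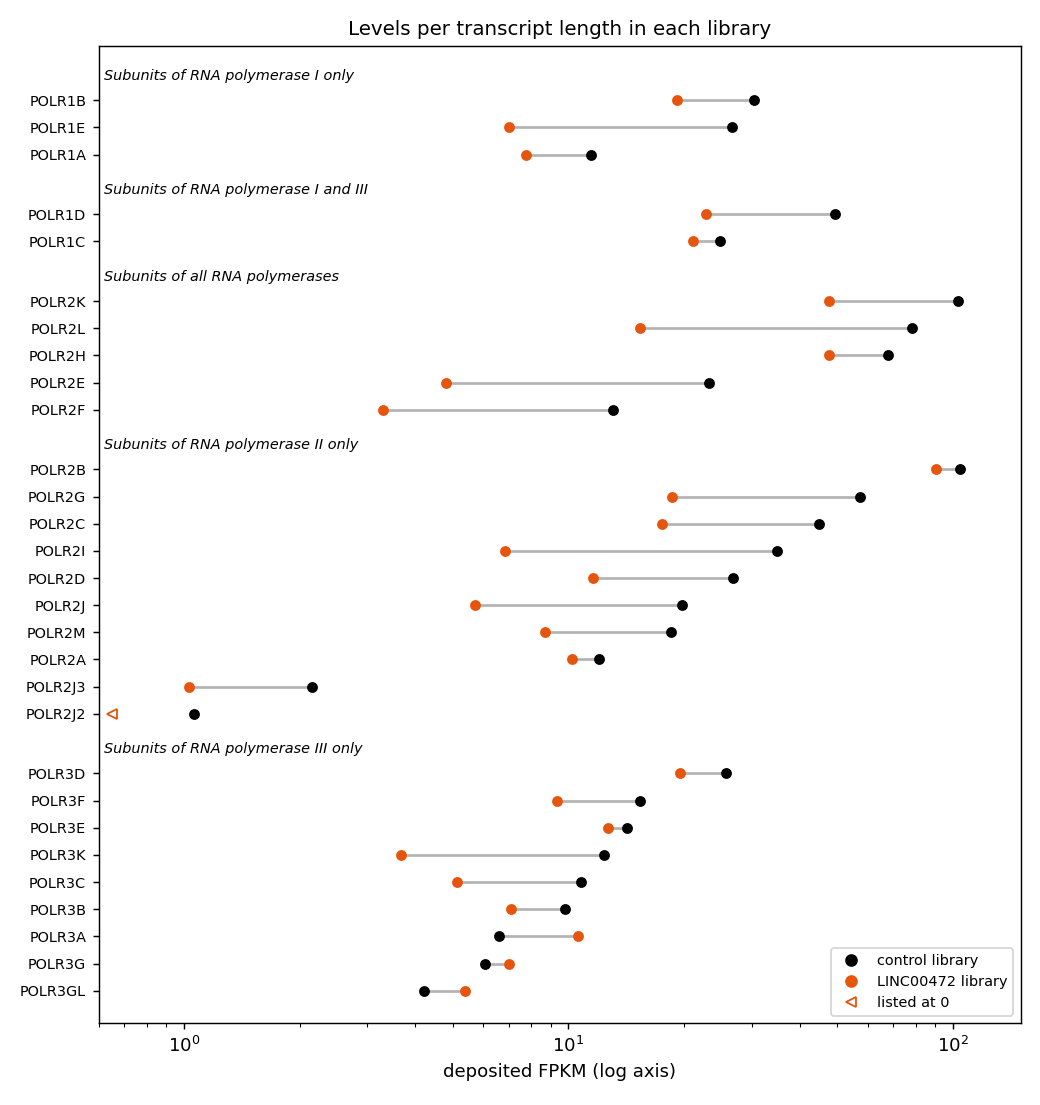
Deposited FPKM (log axis) of 29 subunit genes in the control (black) and LINC00472 (orange) library, 1 library each, grouped by the enzymes that contain the subunit. POLR3A, POLR3G and POLR3GL are the genes with a higher FPKM in the LINC00472 library, and POLR2J2 is listed at 0 there.

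Summed over all 30 genes, the subunits took 0.136% of gene counts in the LINC00472 library (exact binomial 95% interval 0.135 to 0.138) and 0.199% in the control (0.198 to 0.200). The large class alone took 0.0786% against 0.0884%, a 1.12-fold difference, and the small class 0.0315% against 0.0670%, a 2.13-fold difference. These intervals cover counting error only. The shares use unscaled totals, unlike the TMM-scaled ratios above. POLR2B alone gave 8599 of the 16573 counts of the large class in the LINC00472 library and 24064 of 48445 in the control.

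Promoter sequence of the members was described as well, and any link to their ratios was not tested. RefSeq windows (GRCh38.p14) of 250 bases before to 50 after the start were matched for 21 of 30 genes, with 27 windows. The motif GGGCGG (GC box), searched on both strands as were the others, was in 21 of 27 windows (77.8%), against 56.3% of windows of protein-coding genes and 45% of all windows. CCGGAAG, a core of ETS factor sites, was in 40.7% of subunit windows against 12.8% and 10.3%. GCGCA followed directly by TGCGC, the site of NRF1, a regulator of nuclear genes for mitochondria, was in 4 windows (14.8%) of POLR2F, POLR2H and POLR3B, against 1.5% and 1.24%.

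The other motifs gave these counts. TATAAA was in 1 window, that of POLR2M, against 9.47% of protein-coding and 11.5% of all windows. CCAAT was in 18.5% against 34.7% and 34.6%. The E-box CACGTG was in 3 windows (11.1%), those of POLR3A, POLR3C and POLR3E, against 8.34% and 7.26%. GGGCGG was the commonest match in both size classes, in 6 of 8 windows of large and 10 of 12 windows of small genes. CCGGAAG was in 3 windows of large and 4 of small genes, and the NRF1 site in 1 and 3. The 12 windows of small genes covered 9 of the 16 genes in that class. Windows of 1 gene overlap, so they are not independent. Median GC content was 63.7% in the subunit windows (57.8% for large and 69.5% for small genes) and 58.7% in all windows. A match is a description of letters in the window and shows no binding.

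The 250 bases before the start are printed for the members with the lowest and the highest ratio among those counted in both libraries, POLR2L and POLR3A, with motif matches in capitals. The window of POLR2L lies at chr11:842530-842779 on the minus strand and holds GGGCGG at 2 places. That of POLR3A lies at chr10:78029516-78029765 on the minus strand and holds CCGGAAG and CACGTG.
POLR2L promoter: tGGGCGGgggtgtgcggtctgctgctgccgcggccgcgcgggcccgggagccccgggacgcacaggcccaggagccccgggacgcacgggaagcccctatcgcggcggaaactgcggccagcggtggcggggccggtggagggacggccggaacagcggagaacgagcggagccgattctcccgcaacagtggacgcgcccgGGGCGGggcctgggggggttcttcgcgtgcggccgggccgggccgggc
POLR3A promoter: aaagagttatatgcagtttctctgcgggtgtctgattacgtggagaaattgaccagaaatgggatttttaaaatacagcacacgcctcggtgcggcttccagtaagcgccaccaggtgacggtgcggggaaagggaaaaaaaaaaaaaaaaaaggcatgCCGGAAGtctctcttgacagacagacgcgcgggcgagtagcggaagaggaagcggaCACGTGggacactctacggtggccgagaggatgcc

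Factors that work with the polymerases were described for comparison, by lists. Of 16 genes for assembly and nuclear import of the enzymes, 7 were lower and 1 higher, with a median log2 ratio of -0.96. The share of lower genes was 43.8%, against 26.2% of protein-coding genes, but relative to the length decile 1 of the 16 was lower and the median was -0.30. The lower ones included the prefoldin subunit PFDN2 (-1.84), the ATPases RUVBL2 (-1.75) and RUVBL1 (-1.59) of the R2TP chaperone complex, and UXT (-1.54). The single higher gene, URI1 (1.09), the scaffold of the prefoldin-like complex that holds PFDN2 and UXT, is named after its value was seen.

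The shares of lower initiation factors were near that background for RNA polymerases I and II. Of 8 genes for RNA polymerase I initiation, 2 were lower (25%) and 1 higher (median log2 ratio 0.01), and with total-count and upper quartile scaling 1 and 0 were lower. UBTF, which bends ribosomal DNA, had a log2 ratio of -1.32 and RRN3, which recruits the enzyme, -1.12. TAF1D, a subunit of the promoter selectivity factor SL1, was higher (9111 against 7033 counts, log2 ratio 1.46). Of 30 general factors of RNA polymerase II, 8 were lower (26.7%) and 0 higher (median -0.75), and under either of those scalings 3 were lower. The 8 included GTF2F1 (-2.31), the larger subunit of TFIIF, and the TFIID and TFIIA subunits TAF13 (-1.94), TAF10 (-1.77) and GTF2A2 (-1.17).

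Of 21 elongation factors measured, 7 were lower (33.3%) and 0 higher (median -0.59), and 3 and 2 were lower with total-count and upper quartile scaling. SUPT4H1 (-1.97), the small partner of SUPT5H in DSIF, was lowest, followed by the histone chaperone SSRP1 (-1.80), PAF1 (-1.31) and the NELF subunit NELFE (-1.17). Of 16 genes listed for RNA polymerase III initiation, 6 were lower (37.5%) and 0 higher (median -0.63). The list includes the repressor MAF1, which is among the 6. No difference between the lists was tested. GTF3C6, a small subunit of TFIIIC, had the lowest ratio of all these factors (209 against 3391 counts, log2 ratio -2.93). MAF1, the repressor of RNA polymerase III, had -1.96, GTF3A, which binds 5S genes, -1.90, and SNAPC2 -1.77. POLRMT, the single-subunit polymerase of mitochondria, had a log2 ratio of -0.55 and was not called.

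**Figure D4:**
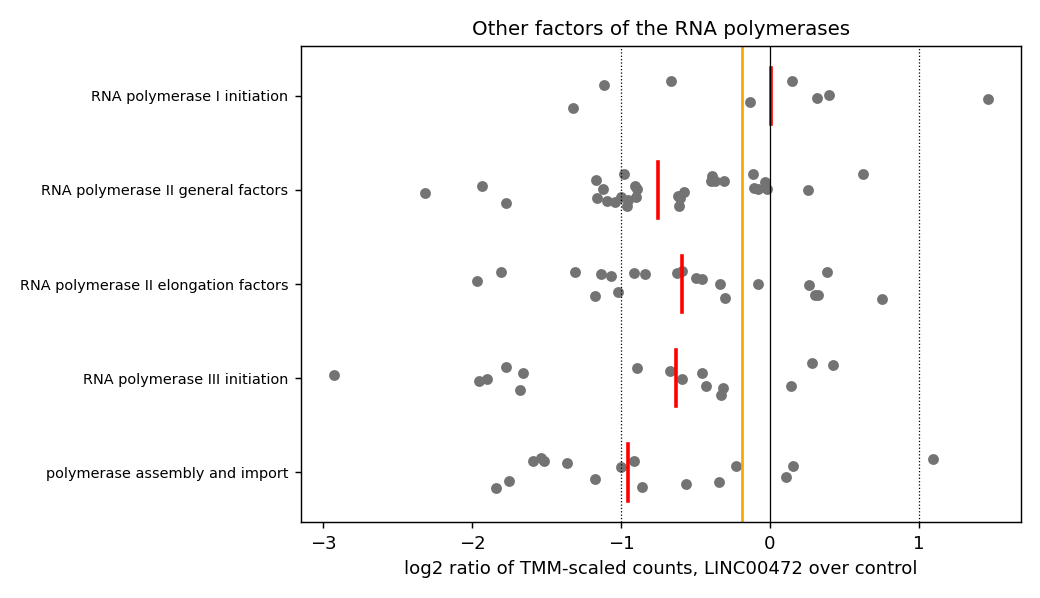
Log2 ratio (LINC00472 over control) of each gene in 5 lists of factors that work with the RNA polymerases (points, spread vertically for visibility); red bars are list medians and the orange line is the median of all genes at the minimum. List medians run from 0.01 for RNA polymerase I initiation to -0.96 for assembly and import.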

How the data were processed

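Total RNA of 2 libraries, 1 per group, was sequenced, and the titles of the samples gave the groups. The authors deposited whole-number read counts per gene, not normalized, and FPKM, once for both libraries together and once for each library, with identical counts. Per the submitters' processing notes, hg19 was the build, and the tools were StringTie 1.3.4b, HISAT2 2.1.0, Trimmomatic and bcl2fastq 2.20.0, without roles. The sources used here do not give how reads were counted or whether strand was marked.

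TMM factors from edgeR 4.0.16 (R 4.3.3) scaled the deposited counts. Log2 ratios used a prior count of 0.5, and intervals are exact conditional (Clopper-Pearson) 95% intervals of the ratio of 2 counts. They cover counting error only, since each group held 1 library. PCR reads are not independent molecules, so the intervals can be too narrow even for that error. Transcript and coding lengths came from GENCODE 29 (GRCh38), which matched all 30 subunit genes and 97.2% of genes at the minimum. The principal isoform matching a deposited RefSeq accession was used, and for POLR2A the longest transcript. POLR2J2 and POLR2J3 have only their coding length there. For adjusted ratios, a spline regression (degree 3, 5 knots; R squared 0.113) on GC content, transcript length and intron length was fitted over 13621 genes, and the median was added back to its residuals (scikit-learn 1.9.0). Exon overlaps came from the same annotation. Coordinates are printed for the RefSeq promoter windows alone.

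All members were named except 1, which is not reported here by itself and is left out of the plots but stays in the counts and medians. From each other list up to 4 called genes with the largest absolute ratio were named, plus subunits under older symbols. Members and lists were chosen with earlier results of these data known. A test of the procedure on simulated data used counting error alone and no trend with length. It does not cover replicate spread or that trend. Alternatives were other scalings (DESeq2 1.42.0 among them), prior counts, minimums, FPKM with 0.5 added, adjusted ratios, a thinned control and other definitions of the small class. Scripts ran in Python 3.11.15 with scipy 1.17.1, numpy 2.4.6, matplotlib 3.10.9 and pandas 2.3.3.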

Additional observations from a re-analysis of the deposited data

How the results depend on the processing

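No paired analysis was possible because each group held 1 library. The small class stayed below the large class under every alternative run, and the gap was smaller in ratios set against length. Other scalings shift all ratios nearly alike, so they could hardly change this gap and do not test it. The difference of medians was -0.40 with ratios adjusted for length, GC content and intron length (large -0.84, small -1.24) and -0.28 relative to the median of the length decile, an alternative chosen after seeing the data (small -0.76). It was -0.75 with all other members as the small class and -1.68 with the 5 shared subunits alone. Scaling moved the class medians together. With total counts they were -0.25 for the large and -1.31 for the small class, with upper quartile factors -0.15 and -1.21, and with FPKM -0.33 and -1.39. The median of all genes, -0.19, became 0.11 under total-count scaling and 0.21 under the upper quartile. The number of lower subunits ranged from 11 to 16, and none was higher except POLR3GL relative to its length decile, where the count of higher genes was 1. There POLR2K (0.066), POLR1D (0.14) and POLR2J3 (0.12), all called lower in the main analysis, lay above their decile median despite ratios below equality. So did POLR1C (0.43), which was not called. Adjustment for length, GC content and intron length changed the sign of POLR1C (0.06) and POLR3G (-0.49). With adjusted ratios POLR1A (-1.20) and POLR3B (-1.13) passed 2-fold and POLR1D (-0.74) and POLR2J3 (-0.95) no longer did, so 14 of the 16 lower genes kept their call. Relative to the length decile 10 of the 16 kept it, and POLR2G, POLR2J and POLR3C also lost it. Total counts and upper quartile factors left 3 and 3 of 8 lower general factors, 3 and 2 of 7 elongation factors and 1 and 0 of 2 RNA polymerase I initiation factors, with 1 higher elongation factor each and 1 higher general factor with upper quartile factors. They left 2 and 1 lower among the subunits under other symbols. With FPKM 3 general, 3 elongation and 1 RNA polymerase I factor were lower, and with adjusted ratios 4 elongation factors were lower and 0 assembly factors higher. Relative to the length decile 2 general, 3 elongation, 1 RNA polymerase I and 1 assembly factor and 1 subunit under another symbol were lower, and 1 general factor, 1 elongation factor and 1 such subunit were higher. The cause was not tested. Depth limits POLR2J2, POLR2J3 and POLR3K most, which have the fewest counts in the LINC00472 library.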
